A study of Mus musculus with 6 samples.

Results

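Kap, Rasl11a and Adm are 3 of the 55394 genes listed for lung group 2 innate lymphoid cells (ILC2s) of newborn mice. They were chosen by their measured values, as genes with clear signal in every library of one group and much lower values in every library of the other, so the step between the groups is described here and not tested. SMART-seq, a method that copies whole transcripts from very little RNA, was run on 1000 ILC2s sorted from lung for each library. The Abx group held 3 libraries from wild type C57BL/6 pups whose dams drank an antibiotic cocktail of ampicillin, metronidazole, neomycin and vancomycin from gestation day 10 to 14, and the Con group held 3 libraries from wild type pups of control dams. The comparison asked how exposure of the dam changes transcription in the ILC2s of her pups. ILC2s were gated as CD45+ cells without lineage markers that carried CD90.2 and CD25. The exact age of the pups, their sex and whether a library pooled several pups are not given in the sources used here, so the spread between libraries may be technical. All levels are FPKM, in which the fragments of a gene are scaled by its exon length and by the reads mapped in the library, so genes of different length can be set side by side.

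ILC2s are tissue lymphocytes without antigen receptors that answer epithelial alarm signals and neuropeptides with type 2 cytokines. Kap encodes the kidney androgen-regulated protein, best known as an abundant transcript of the proximal tubule of the mouse kidney, where androgens and other hormones control it. Rasl11a encodes a small GTPase of the Ras superfamily that has been described with the nucleolar factor UBF at ribosomal RNA genes. Adm encodes the precursor of adrenomedullin, a secreted vasodilator peptide of the calcitonin family whose gene is switched on under low oxygen. Adrenomedullin and the related peptide CGRP use a shared receptor, Calcrl, whose partner protein (Ramp1, Ramp2 or Ramp3) sets which peptide it prefers, and the receptor raises cyclic AMP inside the cell.

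The genes lie on different chromosomes of GRCm38. Kap spans chr6:133849851-133853762 on the minus strand, Rasl11a spans chr5:146845071-146847726 on the plus strand, and Adm spans chr7:110627661-110629820 on the plus strand. Each is a protein-coding gene with 4 exons in its longest transcript, whose exons add up to 707 bases in Kap, 1126 bases in Rasl11a and 1390 bases in Adm. The sequence just before each start is shown because the 3 genes shared the same step between the groups and a reader may compare what lies there. The bases come from the RefSeq promoters of GRCm38.p6, which hold all 3 genes, and run 5′ to 3′ along the gene. Capitals mark TATAAA (the TATA box letters), CACGC (the reverse complement of GCGTG, a core of hypoxia response elements) and CGTCA (the reverse complement of TGACG, a short cAMP response site).
Kap, chr6:133853763-133853917, minus strand, the 155 bases before the outermost annotated start: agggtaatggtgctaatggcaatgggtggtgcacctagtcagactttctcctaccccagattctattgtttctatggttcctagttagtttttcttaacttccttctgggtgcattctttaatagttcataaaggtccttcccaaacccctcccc
Kap, chr6:133853681-133853710, minus strand, the stretch that holds TATAAA before the RefSeq start: gagtacaggatgTATAAAagcccaggagga
Rasl11a, chr5:146844821-146845070, plus strand, the 250 bases before the start: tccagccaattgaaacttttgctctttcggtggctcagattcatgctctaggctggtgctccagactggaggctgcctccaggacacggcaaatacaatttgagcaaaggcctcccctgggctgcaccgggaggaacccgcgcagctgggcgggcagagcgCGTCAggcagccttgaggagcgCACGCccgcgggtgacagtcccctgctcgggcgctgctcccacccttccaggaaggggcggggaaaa
Adm, chr7:110627407-110627656, plus strand, the 250 bases before the RefSeq start: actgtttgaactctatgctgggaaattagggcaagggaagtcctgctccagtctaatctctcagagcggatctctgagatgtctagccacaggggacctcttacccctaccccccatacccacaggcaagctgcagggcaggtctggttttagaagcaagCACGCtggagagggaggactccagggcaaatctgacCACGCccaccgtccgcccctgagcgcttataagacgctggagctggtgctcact

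The 3 stretches differed in base content. Over the 250 bases before the RefSeq start, GC content was 45.6% for Kap, 56.8% for Adm and 63.6% for Rasl11a, beside a median of 52.4% over 32851 promoter windows of the same length. Kap held 1 CpG, Adm 7 and Rasl11a 15, beside a median of 6. Both strands were searched for every motif. TATAAA began 31 bases before the RefSeq start of Kap and was not in the windows of the other genes, and 12.4% of all windows held it. CACGC stood 90 and 54 bases before the start of Adm and 67 bases before that of Rasl11a, and its letters were in 28.2% of all windows. CGTCA stood 89 bases before the start of Rasl11a and was in 17.8% of all windows. The E-box letters CANNTG were in the windows of Kap and Rasl11a and in 66.2% of all windows. The letters of the hypoxia core ACGTG (16.6% of windows), the steroid receptor core AGAACA (16.1%), the nuclear receptor core AGGTCA (14.0%), the RUNX site TGTGGT (14.0%), the GATA site AGATAA (9.99%), the AP-1 site TGANTCA (6.75%), the interferon response element, a pair of GAAA runs 2 bases apart (2.98%) and the full cAMP response element TGACGTCA (1.55%) were in none of the 3 windows. No motif that was searched was held by all 3 genes.

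Kap was among the most abundant transcripts of control ILC2s. Its level was 693.31, 625.62 and 745.53 in Con libraries 1 to 3, against 119.28, 210.93 and 102.75 FPKM in Abx libraries 1 to 3. The groups did not overlap, and the transcript was still plain in every Abx library. Con averaged 688 ± 60.1 FPKM and Abx 144 ± 58.3 FPKM (SD, n = 3 each), so the Con mean was 4.77 times the Abx mean. On the log2(FPKM + 1) scale the difference of Abx minus Con was -2.31, with a pooled SD of 0.40. The nearest pair, the lowest Con and the highest Abx library, differed 2.97-fold.

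Rasl11a was a transcript of moderate level in control ILC2s and close to the bottom of the scale in the exposed group. It stood at 44.51, 34.44 and 38.20 FPKM in Con libraries, against 1.14, 0 and 0.06 in Abx libraries. A single Abx library lay above 1 FPKM, and another was listed at 0. The Con mean was 39.1 ± 5.09 FPKM (SD, n = 3), and the lowest Con library was 30.2-fold above the highest Abx library. The difference of Abx minus Con was -4.92 on the log2(FPKM + 1) scale, with a pooled SD of 0.45.

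Adm had the widest range of the 3 genes within the control group. Its level was 82.19, 19.26 and 54.87 FPKM in Con libraries, against 0.26, 0 and 0 in Abx libraries. All 3 Abx libraries lay under 1 FPKM, and 2 of them were listed at 0. The Con mean was 52.1 ± 31.6 FPKM (SD, n = 3), and the second Con library was the low one, 4.27-fold under the first. Even that library was 74.1-fold above the highest Abx library. The difference of Abx minus Con was -5.40 on the log2(FPKM + 1) scale, with a pooled SD of 0.76.

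**Figure D1:**
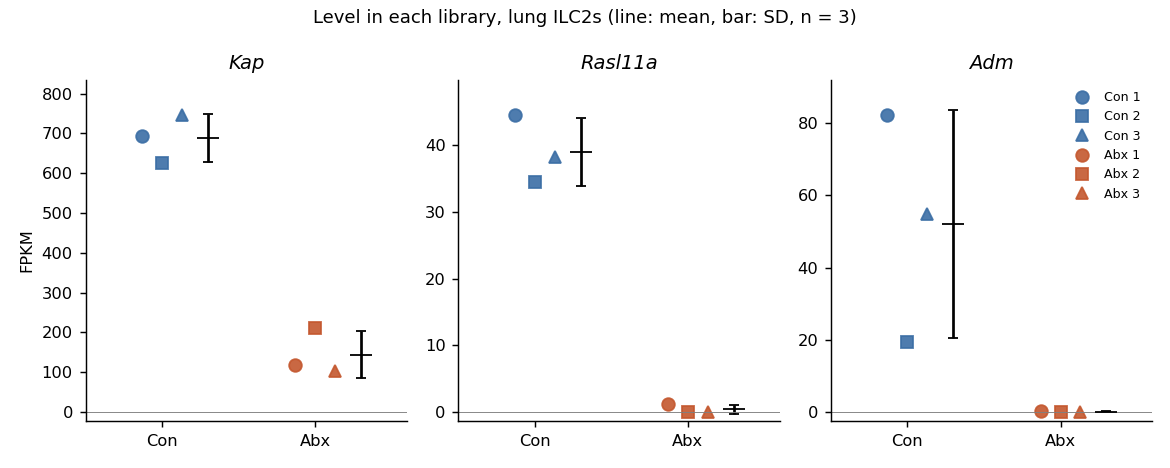
FPKM of Kap, Rasl11a and Adm in each of the 3 Con (blue) and 3 Abx (orange) libraries, with the mean as a line and the SD as a bar, each panel with its own linear axis from 0. Kap stays at 102.75 FPKM or more in Abx, while Rasl11a and Adm lie at or near 0 there and Adm spreads from 19.26 to 82.19 FPKM in Con.

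No count of reads came with the values and none could be recovered from them, so a value of 0 states only that the gene was listed at 0, and the depth behind it is unknown. No fold is given against libraries listed at 0. In RNA from 1000 pooled cells, fewer cells that carry a transcript and less of it per cell cannot be told apart. Rasl11a and Adm passed the filter for low values (3 or more of the 6 libraries at 1 FPKM or above) through the Con libraries, since no more than 1 Abx library reached that level, while Kap reached it in all 6.

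Among the 17203 genes with signal in any Con library, the rank of Kap by the Con mean was 86, with 99.5% of the genes lower. Single Con libraries placed it at 93, 92 and 84, and single Abx libraries at 610, 338 and 677. Adm had rank 1191 by the Con mean, with 93.1% of the genes lower, and its rank in single Con libraries was 797, 2724 and 1114. Rasl11a had rank 1529 by the Con mean, with 91.1% lower, and 1416, 1737 and 1504 in single libraries. In Abx, Rasl11a held rank 6964 in the first library, the only value of Rasl11a or Adm there above 1 FPKM, and lower values are not ranked here.

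Kap was the highest of the 3 genes in every library. It stood 15.6-, 18.2- and 19.5-fold above Rasl11a in the Con libraries, a ratio that hardly varied, and 8.44-, 32.5- and 13.6-fold above Adm. The order of Adm and Rasl11a was not fixed. Adm was 1.85 and 1.44 times Rasl11a in the first and last Con libraries and 0.559 times in the second, and the range of Rasl11a lay inside that of Adm.

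**Figure D2:**
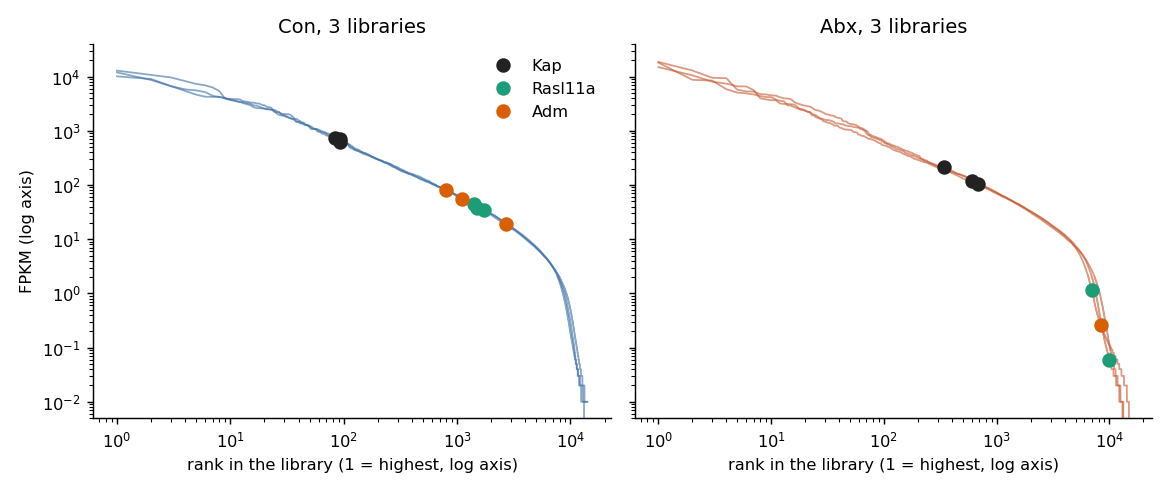
Level of every gene above 0 against its rank in the library (both axes logarithmic), 1 line per library, with Kap, Rasl11a and Adm as points where they were above 0. In Con, Kap sits at ranks 84 to 93 and the other genes between 797 and 2724, and in Abx, Rasl11a and Adm lie at or below 1.14 FPKM on the steep end of the curve, where their order is uncertain.

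How steady a gene was across the Con libraries can be read against genes of a like level, those whose Con mean was within a factor of 2 of its own. The highest Con library of Kap was 1.19 times the lowest, beside a median of 1.24 over its 126 genes of like level, and 34.1% of them varied less. For Rasl11a the ratio was 1.29 beside a median of 1.76 over 1847 genes, of which 15.9% varied less. For Adm it was 4.27 beside a median of 1.65 over 1515 genes, of which 95.5% varied less. Kap and Rasl11a were thus on the steady side of their level and Adm was near the variable end.

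The step itself placed Adm and Rasl11a at the edge of all genes, which the choice of the genes leads to. By the gap from the lowest Con to the highest Abx library, in log2(FPKM + 1), Rasl11a was at position 2 (4.05) and Adm at position 3 (4.01) of the 8718 genes tested, just before Sh3bp5 (20.35 to 23.30 FPKM in Con and 0 to 0.33 FPKM in Abx). The gap of Kap was 1.56, and 123 genes had one at least as large, Kap counted. Just under Adm and Sh3bp5 came Mocs1 with 3.95. Of all genes tested, 8.73% lay lower in all Abx than in all Con libraries, and 8.49% lay higher in all of them.

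Loss of nearly all signal was rare at these levels and was met in both directions. Of 1831 genes of the Con level of Rasl11a with at least 1 FPKM in each Con library, 7 (0.382%) were at or under 2 FPKM in every Abx library. Rasl11a and Adm, which were chosen for this step, are counted among the 7. With the groups exchanged it was 6 of 1703 (0.352%). For the level of Adm the counts were 4 of 1509 (0.265%), again with Rasl11a and Adm among them, and 4 of 1504 (0.266%) with the groups exchanged. At the level of Kap no gene of 125 did so, and none of 141 with the groups exchanged.

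The genes whose pattern came closest to each member, by Pearson r of log2(FPKM + 1) over the 6 libraries, followed the same step. These values are descriptions, since all points share the step between the groups and libraries. Closest to Kap were Trmt2b (r = 0.996), Zfp993 (0.995), Morf4l2 (0.992), Hilpda (0.992) and Spidr (0.991). Hilpda, a protein of lipid droplets, stood at 3007.05, 2597.50 and 3596.71 FPKM in Con libraries, against 1018.09, 1532.36 and 932.50 in Abx libraries, so like Kap it kept a high level in Abx with the second library the highest there. Closest to Rasl11a were Tti2 (0.995), Zdhhc7 (0.994), Arc (0.994), Sh3bp5 (0.994) and Chmp4b (0.993). Arc, an immediate-early gene of neurons and immune cells, stood at 13.98, 19.23 and 17.14 FPKM in Con libraries, against 0.83, 0.06 and 0 in Abx libraries. Closest to Adm were 2310015A10Rik (0.999), Mob3c (0.998), Dnajc8 (0.998), Slc16a3 (0.998) and 2410131K14Rik (0.997). Slc16a3, a lactate exporter, stood at 7.18, 3.57 and 4.94 FPKM in Con libraries, against 0.11, 0.01 and 0.04 in Abx libraries, with the second Con library again the low one. Many genes came close with so few libraries. An r of at least 0.95 was reached by 88 of 8717 genes for Kap, 137 for Rasl11a and 105 for Adm. Between the members r was 0.940 for Kap and Rasl11a, 0.946 for Kap and Adm and 0.979 for Rasl11a and Adm.

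The genes around the members in their pathways were not used to choose the members. Their lists were, however, chosen with earlier results of these data known. The listed genes were tested by a two-sided limma fit of log2(FPKM + 1), whose p-values were adjusted by Benjamini-Hochberg across 8718 genes. To be called, a gene had to differ more than 2-fold at an adjusted p below 0.05. Among all genes tested, 4 of 8718 (0.0459%) were called higher in Abx and 1 (0.0115%) was called lower, 5 in all, and 0 to 2 when a single library was left out. At an unadjusted p under 0.05 there were 413 genes (4.74%) higher and 545 (6.25%) lower. No gene of any list below was called, so their values are given as differences that did not pass the test. Over all genes tested, 4097 were higher and 4621 lower in Abx, with a median difference of -0.06.

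Control ILC2s carried signal for Calca, whose transcripts are spliced to calcitonin or CGRP, and for Ramp1 beside Adm, and very little for Ramp2, a partner of Calcrl that serves adrenomedullin. Of 12 ligands, receptors and enzymes, 4 passed the filter, all 4 lower in Abx with a median of -1.10 on the log2(FPKM + 1) scale. Calca, measured per gene so that its splice products are not told apart, stood at 235.24, 158.02 and 205.12 FPKM in Con libraries, against 16.60, 119.46 and 57.33 in Abx libraries. Its groups did not overlap, and the difference was -1.99 ± 0.64 (SE, limma adjusted p = 0.253, and 0.147 to 0.706 over the alternatives). Calcrl, the shared receptor, stood at 12.84, 4.41 and 2.93 FPKM in Con libraries, against 0.70, 1.32 and 1.98 in Abx libraries, a difference of -1.55 ± 0.75 (SE, limma adjusted p = 0.519, and 0.419 to 0.812 over the alternatives). Its groups did not overlap either, and of all genes tested 8.73% lay lower in Abx without overlap. Ramp1, which pairs with Calcrl for CGRP, was abundant in both groups, with 251.96 to 264.47 FPKM in Con, against 173.04 to 259.60 in Abx. Ramp3, which serves adrenomedullin, stood at 56.98 to 108.96 FPKM in Con, against 24.22 to 87.97 in Abx, and its groups overlapped. Ramp2, the other adrenomedullin partner, did not exceed 0.03 FPKM in any library. Pam, the enzyme that amidates and so completes the peptide, did not exceed 0.24 FPKM, the scavenging receptor Ackr3 0.07 FPKM and the peptidase Mme 0.01 FPKM. Calcb, a second CGRP gene, stood at 3.02, 0 and 0.96 FPKM in Con and was listed at 0 in Abx, while the peptides Adm2 and Iapp and the calcitonin receptor Calcr were listed at 0 in all 6 libraries.

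**Figure D3:**
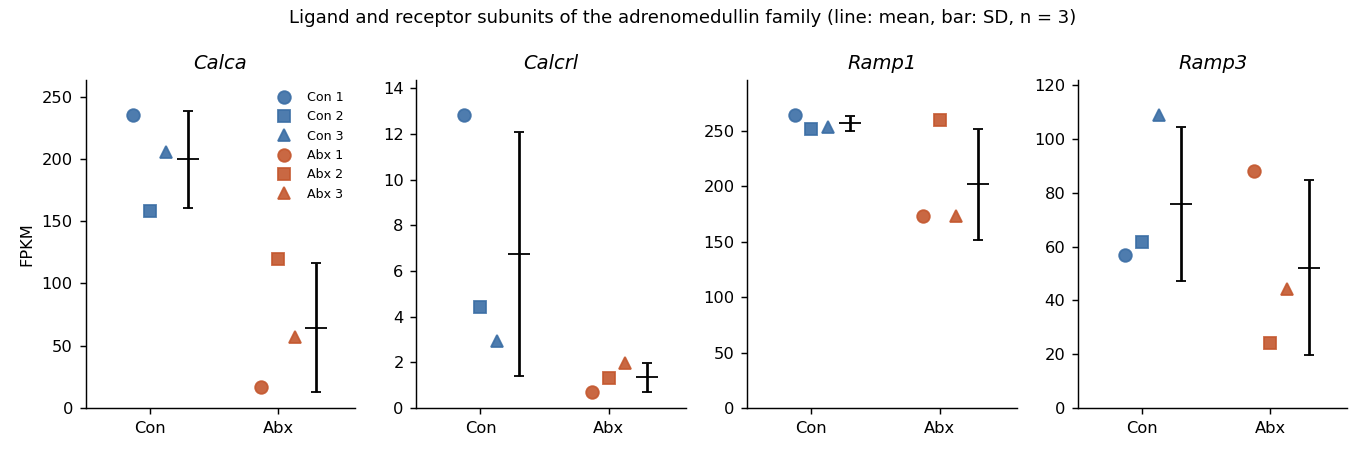
FPKM of Calca, Calcrl, Ramp1 and Ramp3 in each Con (blue) and Abx (orange) library, with mean and SD (n = 3) and linear axes from 0. Calca and Calcrl do not overlap between the groups, Ramp1 and Ramp3 do, and none of the 4 passed the test. Of all genes tested, 8.73% lay lower in Abx without overlap.

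Cyclic AMP signalling, which the receptor feeds, had 11 of 18 genes tested, 2 higher and 9 lower in Abx, with a median of -0.50 on the log2(FPKM + 1) scale. At an unadjusted p under 0.05 none were higher and 2 were lower. Crem, a transcription factor that is itself induced by cyclic AMP, stood at 184.27, 169.61 and 171.30 FPKM in Con libraries, against 75.34, 65.05 and 31.78 in Abx libraries. The groups lay far apart beside their spread, and the difference was -1.68 ± 0.35 (SE, limma adjusted p = 0.0967, and 0.0932 to 0.446 over the alternatives). The other gene was Prkar1a, a regulatory subunit of protein kinase A, with -0.60 (limma adjusted p = 0.405, and 0.271 to 0.770 over the alternatives).

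The hypoxia response list, to which Adm would belong, had no shared direction. Of its 25 genes 21 were tested, 10 higher and 11 lower, and 2 in each direction had an unadjusted p under 0.05. Its median was -0.33 on the log2(FPKM + 1) scale and 0.07 after quantile normalization, so the sign depended on the scaling, and it ranged from -0.39 to -0.03 when a single library was left out. Egln2, an oxygen-sensing hydroxylase, was at 1.50 and Higd1a, a mitochondrial protein, at 0.80, while Bhlhe40, a transcriptional repressor, was at -0.72 and Ldha, lactate dehydrogenase, at -0.40. The limma adjusted p of these 4 differences was 0.348 to 0.416, and 0.197 to 0.745 over the alternatives. Hif1a, the oxygen-regulated factor itself, stood at 33.95, 25.72 and 25.17 FPKM in Con libraries, against 28.76, 15.77 and 11.40 in Abx libraries, with overlapping groups.

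Of the 31 Ras family small GTPases other than Rasl11a, 18 were tested, 4 higher and 14 lower in Abx, with a median of -0.72 on the log2(FPKM + 1) scale (-0.29 without the first Con library and -0.27 without the first Abx library), and 3 of the lower genes had an unadjusted p under 0.05. Rrad, a GTPase of the RGK group that binds calcium channel subunits, was as abundant as Kap in Con, with 748.49, 685.37 and 677.82 FPKM, and stood at 119.52, 240.15 and 264.03 FPKM in Abx. Its difference was -1.83 ± 0.31 (SE, limma adjusted p = 0.0911, and 0.0828 to 0.347 over the alternatives). Mras stood at 5.46, 7.01 and 6.45 FPKM in Con libraries, against 0.05, 0.03 and 0.04 in Abx libraries, with -2.81 ± 0.52 (SE, limma adjusted p = 0.0911, and 0.0864 to 0.561 over the alternatives). Mras reached 1 FPKM in the Con libraries only, so it passed the filter through the group where it was high. The other gene with an unadjusted p under 0.05 was Rap2c with -2.65 (limma adjusted p = 0.359, and 0.194 to 0.717 over the alternatives). Rasl11b, the closest relative of Rasl11a by name, stood at 11.78, 0.02 and 12.75 FPKM in Con libraries, against 14.17, 0 and 0 in Abx libraries, which gave no order of the groups.

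RNA polymerase I transcription, the process with which Rasl11a has been described, had 17 of 21 genes tested, 10 higher and 7 lower, with a median of 0.11 on the log2(FPKM + 1) scale, whose sign turned without the second Con library (-0.13) and without the last Abx library (-0.05). Ubtf, the gene of UBF, stood at 18.26, 11.90 and 23.76 FPKM in Con libraries, against 31.24, 7.22 and 10.13 in Abx libraries, so its groups overlapped. Genes with an unadjusted p under 0.05 were 2, both higher in Abx. Taf1b, a subunit of the selectivity factor, stood at 15.74, 3.48 and 12.46 FPKM in Con libraries, against 55.34, 23.66 and 49.81 in Abx libraries, a difference of 2.04 ± 0.63 (SE, limma adjusted p = 0.234, and 0.197 to 0.635 over the alternatives). Znrd1, a polymerase subunit, was at 1.02 (limma adjusted p = 0.393, and 0.175 to 0.750 over the alternatives).

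Several receptors of steroid and thyroid hormones, among them hormones that act on Kap in kidney, were at or near 0. Of 19 steroid and thyroid hormone receptors and partners, 11 were tested, 3 higher and 8 lower in Abx, with a median of -0.92 on the log2(FPKM + 1) scale (-0.50 without the last Abx library), and 2 of the lower genes had an unadjusted p under 0.05. Nr3c1, the glucocorticoid receptor, was at 25.21 to 46.59 FPKM in Con, against 22.50 to 41.89 in Abx, while Esr1, Esr2 and Pgr, the estrogen and progesterone receptors, were listed at 0 in all 6 libraries. The thyroid hormone receptors Thra and Thrb did not exceed 0.20 and 0.01 FPKM, and the mineralocorticoid receptor Nr3c2 did not exceed 0.01 FPKM. The groups of Nr3c1 overlapped. Rxra, the shared partner of thyroid, retinoid and vitamin D receptors, stood at 15.59, 4.85 and 4.41 FPKM in Con libraries, against 0.34, 0.12 and 0.20 in Abx libraries, a difference of -2.73 ± 0.68 (SE, limma adjusted p = 0.141, and 0.139 to 0.626 over the alternatives). Rxra passed the filter through the Con libraries only, since it stayed under 1 FPKM in Abx. Srd5a3, a steroid reductase relative that serves dolichol synthesis, stood at 20.40, 28.52 and 6.08 FPKM in Con libraries, against 0.18, 5.62 and 0.41 in Abx libraries, with -2.89 (limma adjusted p = 0.283, and 0.160 to 0.678 over the alternatives).

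**Figure D4:**
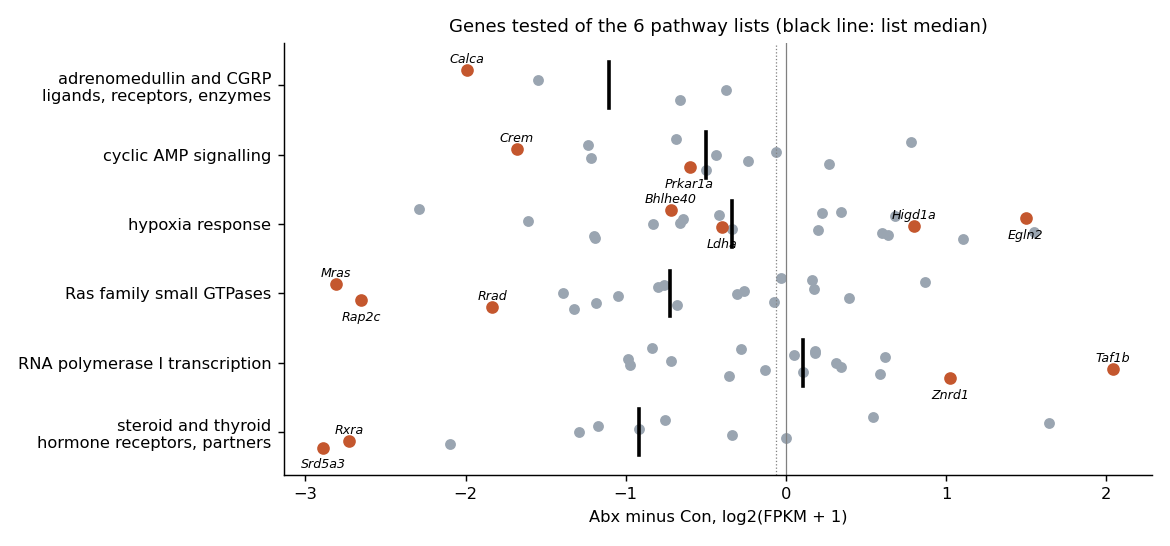
Difference of Abx minus Con in log2(FPKM + 1) for each tested gene of the 6 pathway lists, with the list median as a black bar and the median of all genes (-0.06) as a dotted line. Orange genes had an unadjusted p under 0.05 in limma, none passed the adjusted test, and the list medians run from -1.10 to 0.11.

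Few genes near the members were expressed. Within 500 kb on each side of the starts lay 18 genes for Kap, 31 for Rasl11a and 23 for Adm, of which 1, 6 and 5 passed the filter. Of these 12 genes, 3 were higher and 9 lower in Abx, none was called, and the median was -0.45 on the log2(FPKM + 1) scale. Of the 9 lower neighbours, Sbf2, Etv6 and Gtf3a had an unadjusted p under 0.05 in limma, and no higher neighbour had one. Over all genes tested, 6.25% were lower and 4.74% higher at that p. Kap had only 1 neighbour tested. Sbf2, a regulator of membrane traffic that starts 12.7 kb from Adm on the other strand, stood at 3.94, 3.01 and 4.91 FPKM in Con libraries, against 0.05, 0.02 and 0.04 in Abx libraries, with -2.24 ± 0.46 (SE, limma adjusted p = 0.0967, and 0.0864 to 0.635 over the alternatives). Sbf2 reached 1 FPKM in the Con libraries only, so it passed the filter through the group where it was high. Etv6, a transcriptional repressor of the ETS family 182 kb from Kap, stood at 4.22, 11.37 and 5.53 FPKM in Con libraries, against 0.10, 1.64 and 0.03 in Abx libraries, with -2.38 ± 0.71 (SE, limma adjusted p = 0.212, and 0.178 to 0.663 over the alternatives). Gtf3a, the factor that starts 5S ribosomal RNA transcription, 104 kb from Rasl11a, stood at 37.66, 37.01 and 37.44 FPKM in Con libraries, against 24.65, 10.54 and 16.38 in Abx libraries, with -1.15 ± 0.42 (SE, limma adjusted p = 0.330, and 0.231 to 0.673 over the alternatives). Gtf3a overlaps Mtif3, whose reads could have been shared with it. Rpl21, 12.2 kb before Rasl11a, stood at 45.39 to 67.30 FPKM in Con, against 22.63 to 60.33 in Abx, and has processed copies that could share its reads. Polr1d, a polymerase subunit 232 kb after Rasl11a, was at 0.32 with 31.58 to 57.26 FPKM in Con, against 46.73 to 58.72 in Abx. Gm8494, a processed pseudogene 270 kb before Rasl11a, was higher in Abx, at 8.08 to 9.33 FPKM in Con, against 12.04 to 29.58 in Abx. Its difference was 1.19 (limma adjusted p = 0.467, and 0.208 to 0.752 over the alternatives).

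**Figure D5:**
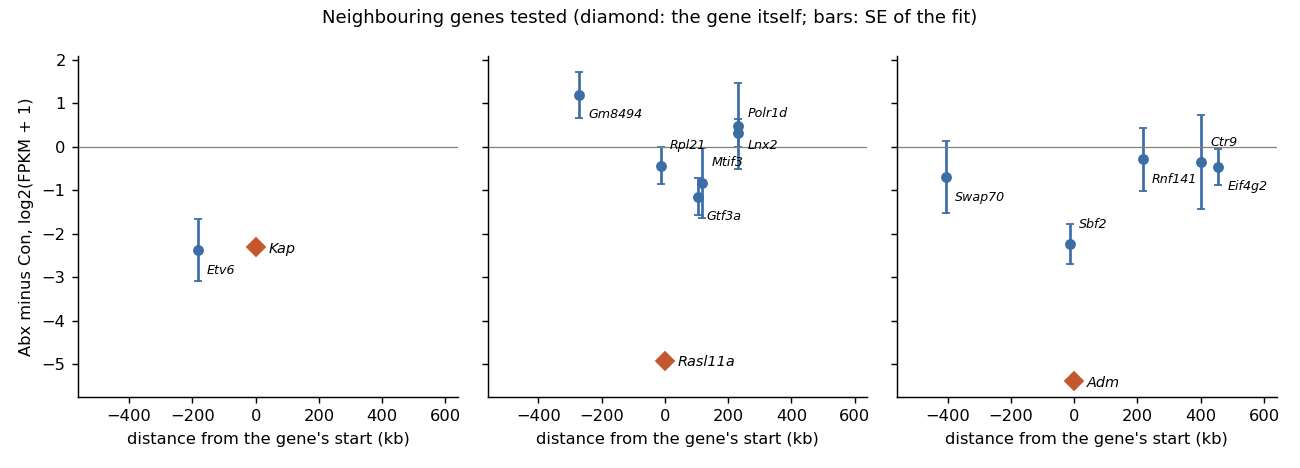
Difference of Abx minus Con in log2(FPKM + 1) with the SE of the limma fit, against distance in kb from the start of Kap, Rasl11a or Adm along the gene, for the 12 neighbours tested. The member is the diamond at 0, and Etv6, Gtf3a and Sbf2 are the neighbours with an unadjusted p under 0.05.

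The libraries differed between the groups in more than the members. Genes at 1 FPKM or more numbered 8574 to 9203 in Con and 7074 to 8193 in Abx. Of 13 ILC2 markers, 12 were at 1 FPKM or more in every Con library and the exception was Il1rl1, the IL-33 receptor, with 0.06, 0.89 and 2.94 FPKM. The summed level of the ILC2 markers was 2857 to 3262 FPKM in Con, against 2165 to 2747 in Abx. Single ILC2 markers went both ways. Means in Con and Abx were 740 and 289 FPKM for Areg, 630 and 438 for Arg1 and 272 and 106 for Icos. For Id2 they were 880 and 1137 FPKM, for Ptprc 21.5 and 37.7, for Il7r 37.2 and 49.3 and for Il17rb 18.7 and 28.6. Summed markers of other lymphocytes stood higher in every Abx library, with 427 to 593 FPKM in Con, against 1366 to 1675 in Abx for 7 B cell genes, 117 to 145 FPKM and 202 to 280 FPKM for 7 T cell genes, and 0 to 21.7 FPKM and 215 to 224 FPKM for 6 NK cell genes, of which Klrb1c, Prf1 and Klra8 were listed at 0 throughout. The NK sum in Abx was Gzma alone, with 223.60, 218.44 and 215.41 FPKM, while Ncr1 and Eomes were listed at 0 there. Single markers did not all follow their sums, as the B cell gene Cd79b was at 69.46 to 116.78 FPKM in Con libraries and lower, at 31.01 to 57.43 FPKM, in Abx libraries. The part of these differences in the values of Kap, Rasl11a and Adm was not tested.

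Markers of kidney proximal tubule, endothelium, and fibroblast and smooth muscle were low in these libraries, while those of some other cell types were not. Of 9 markers of kidney proximal tubule, Lrp2, Cubn, Slc34a1, Slc5a2, Slc22a6, Miox and Slc27a2 were listed at 0 in all 6 libraries, and the sum of the 9 was 0.49 to 4.56 FPKM in Con, against 0.22 to 2.12 in Abx. Endothelium, a known source of adrenomedullin, had 8 of 9 markers under 1 FPKM in every library, and the sum, nearly all Pecam1, was 5.16 to 10.8 FPKM in Con, against 6.14 to 21.1 in Abx. Fibroblast and smooth muscle markers had 6 of 9 genes under 1 FPKM in every library and sums of 1.62 to 2.41 FPKM in Con, against 2.54 to 7.60 in Abx. Sums of lung epithelium (24.6 to 1158 FPKM in Con, against 55.7 to 142 in Abx), macrophage and monocyte (169 to 431 and 254 to 435 FPKM), neutrophil (2.91 to 16.2 and 0 to 75.3 FPKM), mast cell and basophil (328 to 440 and 185 to 540 FPKM) and erythroid markers (3059 to 6553 and 1460 to 3973 FPKM) overlapped between the groups. The part of any of these cell types in the values of the members was not tested.

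Sex went with exposure in these libraries, which touches Kap as a gene under androgen control in kidney. Xist, the transcript of the inactive X chromosome, stood at 3.78, 4.38 and 5.09 FPKM in Con and was listed at 0 in Abx. Eif2s3y, a Y-linked gene, stood at 0.03, 0.58 and 0.86 FPKM in Con libraries, against 22.82, 11.85 and 24.37 in Abx libraries. For Kap, Rasl11a and Adm alike, sex and the dam's exposure cannot be told apart.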

How the data were processed

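SMART-seq levels of 6 libraries were used, 3 Con and 3 Abx, grouped by their labels. The authors trimmed reads with Cutadapt, mapped them with HISAT2 and assembled them with StringTie, and deposited FPKM per gene. Their methods name a human annotation while the identifiers are mouse, and the submitters' processing notes name Bowtie 0.12.2 and the builds mm8 and mm9 without a role. Of 55394 identifiers 55134 were in GENCODE M21 (GRCm38), from which coordinates were taken. The authors tested with DESeq2, which needs counts. Whole reads could not be recovered (25.0% to 28.6% of low values lay near a multiple of the best step, and 20% do by chance), so depth per library is unknown and no counting error is given. Total FPKM was 420941 to 489262.

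Levels were analysed as log2(FPKM + 1). Genes that reached 1 FPKM in 3 or more libraries were tested with limma 3.58.1 in R 4.3.3 (lmFit, eBayes with trend), which was first tested on simulated data. Alternatives were pseudocounts of 0.1 and 0.01, quantile normalization, median centring, no filter, a filter on a mean of 5 FPKM, the replicate number as a block and each library left out. Promoters came from RefSeq (GRCm38.p6). Python 3.11.15 and matplotlib 3.10.9 made the tables and plots.

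The genes named are the members, genes of the pathway lists (those with an unadjusted p under 0.05 or a high level, and those whose role a sentence needs), neighbours within 500 kb, the 5 genes most similar to each member, Xist, Eif2s3y and the marker lists. Mocs1 was named after its values were seen. Some genes that these rules name are not reported here. Members and lists were chosen with earlier results of these data known.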

Additional observations from a re-analysis of the deposited data

How the results depend on the processing

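The difference of Kap kept its direction and size under every alternative, with -2.62 to -2.11 when a library was left out. Those of Rasl11a and Adm grew with smaller pseudocounts, since their Abx values lie at or near 0. Rasl11a was at -7.17 with a pseudocount of 0.1 and -8.71 with 0.01, and Adm at -8.18 and -10.53. With a library left out they ranged from -5.27 to -4.73 and from -5.98 to -4.96. Over all genes tested, 5 were called, and 0 with a pseudocount of 0.1, with 0.01, with no filter on low values and with the replicate block. Without the second Abx library 2 were called, and without any other single library 0. No pathway list or neighbour was called under any alternative. The 410 values of single genes kept their direction, and 1 of 91 list medians moved beyond its spread (the adrenomedullin list without the filter, -0.37, where its genes near 0 enter), though without a single library the Ras list ran from -0.72 to -0.27, the steroid list from -1.10 to -0.50, the hypoxia list from -0.39 to -0.03 and the polymerase I list from -0.13 to 0.24. With quantile normalization the medians of the Ras list, the steroid list and the neighbours were -0.49, -0.47 and -0.14. In their deviations from the group means, same-numbered libraries had correlations of -0.0286 to 0.0097, and other pairs of a Con and an Abx library -0.0278 to 0.0516. No strong effect of the replicate number was thus seen. This cannot show whether the libraries were paired, which the labels do not state. Depth is unknown, so levels under 1 FPKM in Abx cannot be ordered.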

Other observations

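The 10 genes with the widest gap from the lowest Con to the highest Abx library also held genes of other roles, given here as values chosen after they were seen. Tktl1, a relative of transketolase, stood at 23.84, 15.31 and 11.51 FPKM in Con and was listed at 0 in all Abx libraries. Pctp, a phosphatidylcholine transfer protein, stood at 11.75, 31.60 and 17.75 FPKM in Con libraries, against 0.05, 0.03 and 0 in Abx libraries. Mrps2, a protein of the mitochondrial ribosome, stood at 11.51, 16.16 and 11.91 FPKM in Con libraries, against 0.04, 0 and 0.10 in Abx libraries. All were below the Con levels of Rasl11a and Adm by their means, and none was tested for belonging together.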
